A study of Mus musculus with 6 samples.

Results

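The genes described here are 39 mouse genes of mitosis and cytokinesis, chosen by name: they are the rows of the deposited expression table whose gene symbol was on a list of 39 symbols. Every symbol was found once, which makes 39 of the 41214 rows. The rule uses symbols and no measured value, but the list was drawn up with earlier results of these data known. The table comes from bulk sequencing of total RNA from cultured mouse mammary tumor explant cells. Control cells had the genotype Neu-NT shCON (3 libraries) and CdGAP-depleted cells the genotype Neu-NT shCdGAP (3 libraries). Arhgap31 encodes CdGAP, which turns off the small GTPases Cdc42 and Rac1, and an shRNA is a short hairpin RNA that lowers the messenger RNA it matches. Both groups derive from NMuMG, a mouse mammary gland epithelial line, and both carry Neu-NT, a constitutively active ErbB2 receptor, the kinase amplified in HER2-positive breast cancer. Both were grown in serum and insulin under G418 selection and passaged before reaching confluence. The labels do not say whether a group is 1 clone or a pool, nor whether its 3 libraries are independent cultures. If they are not, a p-value here reflects technical spread alone. The cell type label names the control hairpin for all 6 libraries, and the groups were taken from the genotype label and the titles.

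Mitosis runs in an order set by the waves of a few proteins. Cyclins of the A and B types switch on the kinase Cdk1, the chromosomes condense and attach to a spindle, and a checkpoint holds the cell until every kinetochore is attached. The anaphase-promoting complex then destroys the cyclins and the link between sister chromatids, and a contractile ring divides the cell. Most of these genes are transcribed late in the cell cycle. In resting cells the DREAM complex keeps them off through an element called CHR. In dividing cells Myb-MuvB and Foxm1 switch them on together with NF-Y, which binds CCAAT boxes. Their RNA level in a culture is therefore commonly read as a sign of how many cells are dividing. In bulk RNA, however, fewer dividing cells and less RNA per cell cannot be told apart.

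The elements just named can be read in the upstream sequence of the members. The windows searched were the 250 bases before each RefSeq transcription start (build GRCm38.p6, credited to RefSeq). They covered 31 of the 39 members in 34 windows, since 3 of these genes have a further start with an overlapping window. No window was used for Aurkb, Bora, Ccna2, Cdc25c, Dlgap5, Foxm1, Kif20a and Tpx2. The letters searched on both strands were CCAAT, the NF-Y box, and for the CHR element TTTGAA, or its rarer variant form TTCGAA. The members shown were picked after the matches were seen: 8 with matches close to the start, and Birc5 as one without. Each line gives the last 100 bases before the start, 5′ to 3′ on the strand of the gene, with capitals marking each match on either strand (on the other strand the NF-Y box reads ATTGG, and the usual form of the CHR element then reads TTCAAA).
Plk1: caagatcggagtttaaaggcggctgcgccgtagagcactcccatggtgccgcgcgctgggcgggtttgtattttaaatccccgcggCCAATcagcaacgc
Aurka: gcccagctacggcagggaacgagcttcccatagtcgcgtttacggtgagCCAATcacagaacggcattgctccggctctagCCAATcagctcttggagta
Ccnb2: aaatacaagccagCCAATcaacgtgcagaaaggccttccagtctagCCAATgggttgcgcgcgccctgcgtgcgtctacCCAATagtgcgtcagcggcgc
Ttk: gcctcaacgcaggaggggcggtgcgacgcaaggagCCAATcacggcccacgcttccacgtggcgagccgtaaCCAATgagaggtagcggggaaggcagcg
Top2a: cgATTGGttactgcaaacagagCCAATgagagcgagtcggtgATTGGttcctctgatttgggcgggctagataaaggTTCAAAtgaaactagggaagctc
Kif11: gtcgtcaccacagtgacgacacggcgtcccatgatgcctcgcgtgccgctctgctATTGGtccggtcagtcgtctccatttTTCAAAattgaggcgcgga
Hmmr: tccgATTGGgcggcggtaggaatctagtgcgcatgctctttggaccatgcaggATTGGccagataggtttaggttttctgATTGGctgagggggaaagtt
Racgap1: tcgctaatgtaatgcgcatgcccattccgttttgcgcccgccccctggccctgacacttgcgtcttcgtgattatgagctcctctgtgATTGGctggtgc
Birc5: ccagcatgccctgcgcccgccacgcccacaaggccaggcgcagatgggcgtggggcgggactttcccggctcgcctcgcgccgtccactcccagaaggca
These stretches lie at chr7:122159335-122159434 (plus strand) for Plk1, chr2:172370571-172370670 (minus) for Aurka, chr9:70421555-70421654 (minus) for Ccnb2 and chr9:83834589-83834688 (plus) for Ttk. The others lie at chr11:99024190-99024289 (minus) for Top2a, chr19:37376282-37376381 (plus) for Kif11, chr11:40733438-40733537 (minus) for Hmmr, chr15:99651657-99651756 (minus) for Racgap1 and chr11:117849137-117849236 (plus) for Birc5.

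CCAAT stood in 28 of the 34 member windows (82.4%), against 33.8% of all 32851 windows of the same length. At least 2 CCAAT boxes stood in 52.9% of member windows and in 10.1% of all windows. TTTGAA was present in 14 member windows (41.2% against 16.0%) and TTCGAA in 2 (5.88% against 1.34%), and 41.2% of member windows held a CHR form together with CCAAT, against 6.02% of all. Counted once where windows overlap, the members had 56 CCAAT sites, of which 38 began within 100 bases of the nearer start, and 22 member genes had such a site. In Ccnb2, the gene of a B-type cyclin, the boxes began 87, 54 and 21 bases before the start. Top2a, the gene of the topoisomerase that untangles sister chromatids, held boxes 98, 78 and 58 bases before it and a CHR form at 23. In Kif11, which encodes the motor that pushes spindle poles apart, the box was at 45 and the CHR form at 19. None of the 19 CHR sites, counted likewise, shared a base with a CCAAT site. A match describes letters in a window, and a window without one says only that these letters are not in it.

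**Figure D1:**
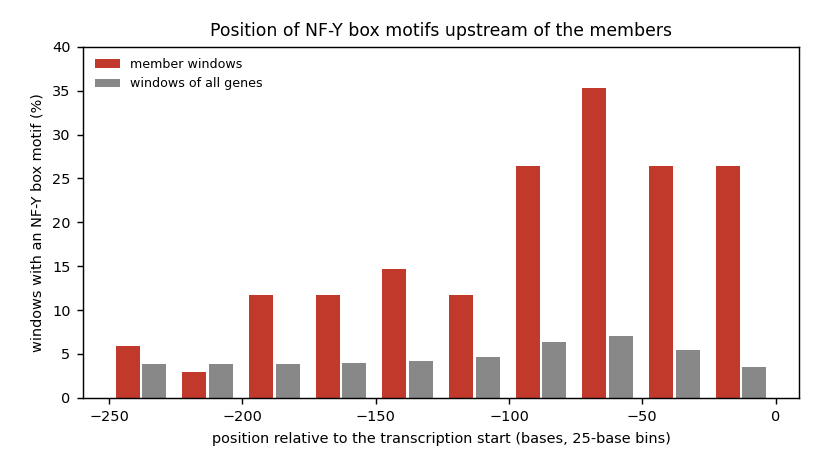
Share of upstream windows (%) with a CCAAT box (NF-Y box motif) beginning in each 25-base bin before the transcription start, for 34 windows of 31 members (red) and all 32851 windows (grey). Between 51 and 75 bases before the start, 35.3% of member windows and 6.99% of all windows had one.

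Reads assigned to genes, as recovered from the deposited values, numbered 19176540 to 26824249 per library, and shares of reads are taken of these totals. All 39 members passed the filter on low reads, as 13483 genes did. One library, shCdGAP replicate 1, was unlike its group. Across tested genes the Pearson r of its log2(FPKM + 1) values with shCdGAP replicate 2 was 0.948 and with replicate 3 was 0.938, against 0.996 between those other replicates and 0.990 to 0.998 among shCON libraries. Arhgap31, the target of the hairpin, stood at 0.149, 0.826 and 0.748 FPKM in the shCdGAP libraries and at 1.19, 1.30 and 1.35 FPKM in the shCON libraries (replicates 1, 2 and 3 of each group, the order used throughout), lowest in that same library. Its unscaled reads numbered 38, 202 and 207 in the shCdGAP libraries and 256, 397 and 402 in the shCON libraries. On the log2(FPKM + 1) scale the log2 fold change of Arhgap31 (shCdGAP over shCON) was -0.56 ± 0.19 over 6 libraries (SE; adjusted p = 0.0836, limma), not under 0.05. Without shCdGAP replicate 1 the log2 fold change was -0.35 (adjusted p = 0.0157, limma). At levels this low the added 1 FPKM makes both fold changes understate the difference in level. Mitochondrial genes took 3.24% of the reads of shCdGAP replicate 1, 2.51% and 2.32% in the other shCdGAP libraries, and 1.58% to 1.69% in shCON. The epithelial label was checked with 10 markers, of which Cdh1, Krt8, Krt18 and Krt19 averaged at least 1 FPKM, 6 were under 1 FPKM in every library, and Cldn7 was at 0 throughout. Their summed level was 4001 FPKM in shCdGAP replicate 1, 6219 and 6555 in replicates 2 and 3, and 3617 to 5065 in shCON. All 9 fibroblast markers (summed 0.605 to 1.10 FPKM in shCdGAP and 0.814 to 0.947 in shCON, Lum and Thy1 at 0) and all 8 endothelial markers (0.00851 to 0.0681 and 0.350 to 0.368, Emcn and Cldn5 at 0) were under 1 FPKM in every library. Of 9 leukocyte markers Cd68 and Cd14 averaged at least 1 FPKM and Adgre1 was at 0, and their sum was 65.0 FPKM in shCdGAP replicate 1, 111 and 129 in replicates 2 and 3, and 107 to 113 in shCON.

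The 39 genes varied together across the 6 libraries, and the largest step was between libraries of one group, not between the groups. All 39 had their lowest level in shCdGAP replicate 1, whereas 30.7% of all tested genes did. There they stood 2.50-fold (Bub3) to 24.8-fold (Kif20a) below the mean of shCdGAP replicates 2 and 3, with a median of 15.2-fold, while the median of all tested genes was 0.977. In those other shCdGAP libraries 35 of the 39 were above every shCON library, against 33.4% of tested genes. The shCdGAP libraries thus lie on both sides of the control libraries for most members, and the groups overlapped for all 39. Groups that did not overlap made up 44.1% of tested genes.

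The same order shows in the share of each library that the members take. Reads on the 39 genes made up 0.0765% of shCdGAP replicate 1 (17708 reads) but 0.980% and 0.917% of replicates 2 and 3, and 0.503%, 0.731% and 0.737% of shCON replicates 1, 2 and 3. The median member stood at 4.14, 54.2 and 54.3 FPKM in the shCdGAP libraries and at 26.9, 39.4 and 38.0 FPKM in shCON. In shCdGAP replicate 1 the members still had 57 (Cdc25c) to 1975 (Bub3) reads each. Within shCON, replicate 1 was the lowest library for 38 of 39 members, against 41.3% of tested genes. Its member levels were 53.8% (Nusap1) to 99.6% (Ccnb2) of the mean of shCON replicates 2 and 3, with a median of 69.3%, where the median of all tested genes was 101%. Both libraries numbered 1 were thus the lower ones of their groups, the shCdGAP one by far more.

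**Figure D2:**
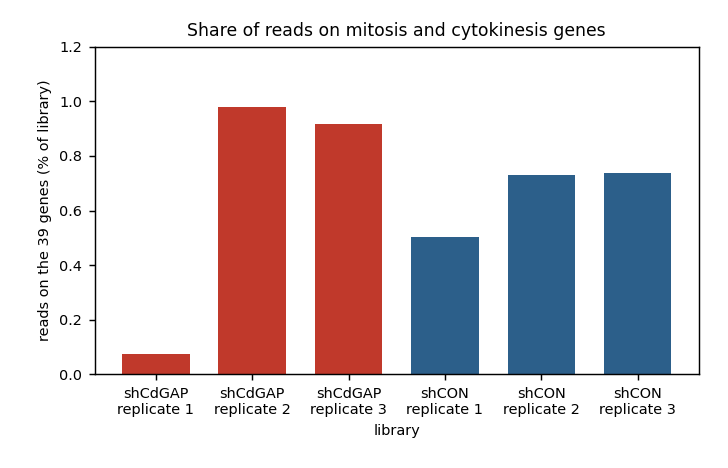
Share (%) of each library's reads assigned to genes that fell on the 39 genes, for 3 shCdGAP libraries (red) and 3 shCON libraries (blue). The shCdGAP bars run from 0.0765% in replicate 1 to 0.980% in replicate 2, below and above the shCON bars of 0.503% to 0.737%.

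**Figure D3:**
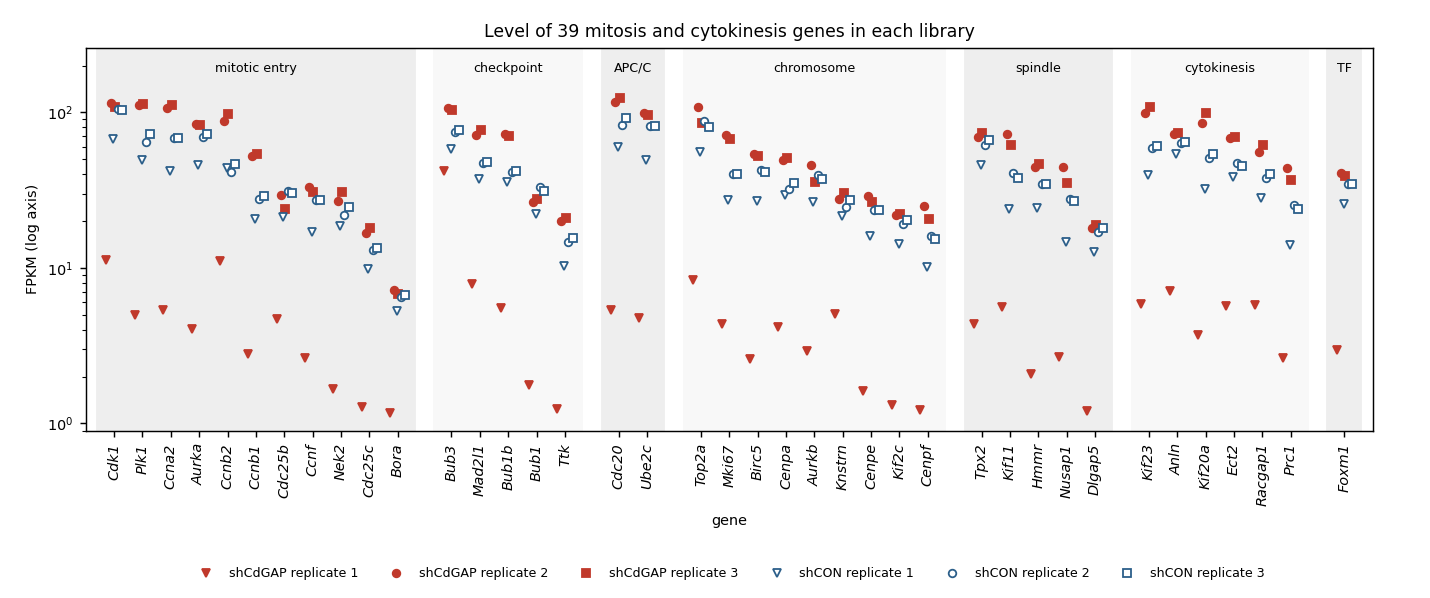
Level (FPKM, log axis) of each of the 39 genes in each of the 6 libraries, grouped by role and ordered by mean level within a role. Filled red symbols are shCdGAP and open blue symbols shCON, and the red triangles of shCdGAP replicate 1 are the lowest point of every column.

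Among the 11 regulators of mitotic entry, the most abundant per length were Cdk1, Plk1 and Ccna2. Cdk1 (chr10:69335146-69352938, minus strand, from the GENCODE M21 annotation), the kinase that drives entry, stood at 11.3, 115 and 108 FPKM in the shCdGAP libraries and at 67.5, 105 and 104 FPKM in the shCON libraries. Plk1, the polo-like kinase of centrosome maturation, stood at 5.0, 112 and 113 FPKM in the shCdGAP libraries and at 49.5, 64.6 and 73.1 FPKM in the shCON libraries. Ccna2, which encodes the cyclin of S phase and early mitosis, stood at 5.35, 107 and 111 FPKM in the shCdGAP libraries and at 41.7, 68.3 and 68.6 FPKM in the shCON libraries. All 3 were lowest in shCdGAP replicate 1 and highest in shCdGAP replicates 2 and 3, so the groups overlapped, and Cdk1 in the higher shCdGAP libraries was closest to its control level. With 6 libraries the limma log2 fold change (shCdGAP over shCON, on the log2(FPKM + 1) scale) was -0.76 ± 0.88 (SE; adjusted p = 0.589) for Cdk1, -0.56 ± 1.15 (0.772) for Plk1 and -0.47 ± 1.13 (0.803) for Ccna2. Without shCdGAP replicate 1 it was 0.30 ± 0.20 (adjusted p = 0.267, limma), 0.85 ± 0.16 (0.00724) and 0.90 ± 0.22 (0.0185), so that Plk1 and Ccna2 were then higher and Cdk1 was not past the threshold.

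The other entry regulators differed in how far they exceeded the control level once that library was set aside. The B-type cyclins, which pair with Cdk1, had the largest ratios of all 39 members: the mean of shCdGAP replicates 2 and 3 was 2.13 times the shCON mean for Ccnb2 and 2.08 times for Ccnb1. Ccnb2, described by library after its values were seen, stood at 11.2, 87.9 and 98.3 FPKM in the shCdGAP libraries and at 43.7, 41.3 and 46.4 FPKM in the shCON libraries, with the control libraries close together and below both higher shCdGAP libraries. For the phosphatase genes that release Cdk1 from inhibition the ratio was 0.971 for Cdc25b, the lowest of the role, and 1.43 for Cdc25c. Aurka, the kinase of the spindle poles, Nek2, a centrosome kinase, Ccnf, an F-box protein of a ubiquitin ligase, and Bora, a cofactor that lets Aurka activate Plk1, had ratios of 1.33, 1.34, 1.34 and 1.13. In the role as a whole shCdGAP replicate 1 was 5.72-fold to 22.4-fold below its group. Without it Ccnb1, Ccnb2, Ccna2, Cdc25c, Plk1 and Nek2 passed the threshold as higher, 6 of 11, where 19.9% of tested genes did.

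Of the 5 spindle checkpoint genes, Bub3, Mad2l1 and Bub1b were the most abundant. Bub3 (chr7:131560222-131571895, plus strand), a scaffold that brings checkpoint kinases to kinetochores, stood at 42.0, 106 and 104 FPKM in the shCdGAP libraries and at 57.8, 74.5 and 77.4 FPKM in the shCON libraries. Mad2l1, whose product blocks the activator of the anaphase-promoting complex, stood at 7.90, 71.9 and 76.7 FPKM in the shCdGAP libraries and at 37.1, 47.4 and 47.9 FPKM in the shCON libraries. Bub1b, which encodes the BubR1 pseudokinase of the same inhibitory complex, stood at 5.51, 72.4 and 70.1 FPKM in the shCdGAP libraries and at 35.8, 41.5 and 42.3 FPKM in the shCON libraries. Bub3 was the least lowered of the 39 in shCdGAP replicate 1, 2.50-fold against 9.41-fold for Mad2l1 and 12.9-fold for Bub1b, but in that library all 3 were again under every control library. In limma over 6 libraries the log2 fold change of Bub3 was 0.16 ± 0.37 (SE; adjusted p = 0.800), and it was -0.28 ± 0.84 (0.849) for Mad2l1 and -0.33 ± 0.94 (0.838) for Bub1b. Without shCdGAP replicate 1 all 3 were higher, by 0.59 ± 0.13 (adjusted p = 0.0145, limma), 0.75 ± 0.13 (0.00491) and 0.83 ± 0.094 (0.00109).

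The checkpoint kinases Ttk and Bub1 gave different calls. Ttk, also known as Mps1, was higher without shCdGAP replicate 1 (0.58 ± 0.17, adjusted p = 0.0325, limma). Bub1, also picked after its values were seen, stood at 1.78, 26.6 and 27.8 FPKM in the shCdGAP libraries and at 22.2, 33.2 and 31.1 FPKM in the shCON libraries. Its values in shCdGAP replicates 2 and 3 lay between those of shCON replicate 1 and the other shCON libraries. Bub1 had the lowest log2 fold change of all 39 over 6 libraries (-1.17 ± 0.91, adjusted p = 0.420, limma). Its value was -0.060 ± 0.17 without shCdGAP replicate 1 (adjusted p = 0.799, limma), and Bub1 was the single member called lower without both libraries numbered 1 (-0.23, adjusted p = 0.0311).

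Cdc20 and Ube2c serve the anaphase-promoting complex, the ubiquitin ligase that ends metaphase. Cdc20 (chr4:118432901-118437352, minus strand), its activator, stood at 5.38, 116 and 124 FPKM in the shCdGAP libraries and at 60.1, 82.4 and 92.5 FPKM in the shCON libraries. Ube2c, the enzyme that hands it ubiquitin, stood at 4.74, 99.5 and 96.7 FPKM in the shCdGAP libraries and at 49.6, 81.6 and 81.4 FPKM in the shCON libraries. The 2 genes had the same order of libraries at the bottom: shCdGAP replicate 1, then shCON replicate 1, then the other shCON libraries below both remaining shCdGAP libraries. Relative to its group shCdGAP replicate 1 was 22.3-fold lower for Cdc20 and 20.7-fold lower for Ube2c. Neither passed over 6 libraries, where limma gave -0.78 ± 1.16 (SE; adjusted p = 0.677) for Cdc20 and -0.87 ± 1.13 (0.633) for Ube2c as log2 fold changes. Cdc20 was higher without shCdGAP replicate 1 (0.63 ± 0.18, adjusted p = 0.0311), whereas Ube2c was at 0.50 ± 0.22 (adjusted p = 0.115) and passed once both libraries numbered 1 were left out (0.26, adjusted p = 0.0152).

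Among the 9 genes of the centromere, the kinetochore and the mitotic chromosome, Top2a, Mki67 and Birc5 were the most abundant. Top2a (chr11:98992943-99024189, minus strand) stood at 8.37, 108 and 86.0 FPKM in the shCdGAP libraries and at 55.3, 88.4 and 80.5 FPKM in the shCON libraries. Mki67, which encodes the Ki-67 protein that coats mitotic chromosomes and is a common marker of dividing cells, stood at 4.36, 72.0 and 67.7 FPKM in the shCdGAP libraries and at 27.3, 40.3 and 40.2 FPKM in the shCON libraries. Birc5, which encodes survivin of the chromosomal passenger complex, stood at 2.60, 54.2 and 52.8 FPKM in the shCdGAP libraries and at 26.9, 42.5 and 41.4 FPKM in the shCON libraries. Top2a in shCdGAP replicate 3 fell among the control values, while Mki67 and Birc5 in shCdGAP replicates 2 and 3 lay above all of them. In limma over 6 libraries Top2a was at -0.73 ± 0.93 on the log2 scale (SE; adjusted p = 0.626), and the value was -0.28 ± 1.02 (0.878) for Mki67 and -0.76 ± 1.07 (0.664) for Birc5. Without shCdGAP replicate 1 it was 0.39 ± 0.21 (adjusted p = 0.181, limma), 0.96 ± 0.17 (0.00660) and 0.55 ± 0.19 (0.0642).

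The other 6 genes of that role were lowest in shCdGAP replicate 1 as well. Cenpa, the histone variant that marks centromeres, and Cenpf, a protein of the outer kinetochore, were the other members called higher without shCdGAP replicate 1, at 0.63 ± 0.093 (adjusted p = 0.00291, limma) and 0.71 ± 0.20 (0.0317). Cenpe, a kinetochore motor, Kif2c, a motor that dismantles microtubule ends, Aurkb, the kinase that corrects faulty attachments, and Knstrn, a kinetochore adaptor, did not pass there, with values of 0.40 ± 0.17, 0.30 ± 0.15, 0.25 ± 0.19 and 0.24 ± 0.11. Aurkb, picked after its values were seen, in shCdGAP replicate 3 (2.92, 45.9 and 35.9 FPKM in the shCdGAP libraries) lay below 2 of the shCON libraries (26.5, 39.4 and 37.3 FPKM). Knstrn was lowered 5.74-fold in shCdGAP replicate 1, the least of the 9, and Birc5 20.6-fold, the most.

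The 5 genes of spindle assembly were led by Tpx2, Kif11 and Hmmr. Tpx2 (chr2:152847964-152895321, plus strand), which activates Aurka at spindle microtubules, stood at 4.37, 69.7 and 73.4 FPKM in the shCdGAP libraries and at 45.9, 61.6 and 66.2 FPKM in the shCON libraries. Kif11, the motor Eg5, stood at 5.57, 72.3 and 61.9 FPKM in the shCdGAP libraries and at 24.1, 40.5 and 38.0 FPKM in the shCON libraries. Hmmr, a spindle protein also known as a hyaluronan receptor, stood at 2.08, 44.8 and 46.6 FPKM in the shCdGAP libraries and at 24.1, 34.7 and 34.4 FPKM in the shCON libraries. In all 3 the shCON libraries sat between the low shCdGAP library and the 2 high ones, narrowly so for Tpx2 and widely for Kif11. In limma over 6 libraries the log2 fold changes were -0.94 ± 1.02 for Tpx2 (SE; adjusted p = 0.569), -0.14 ± 0.93 for Kif11 (0.936) and -0.75 ± 1.07 for Hmmr (0.666). Kif11 and Hmmr were higher without shCdGAP replicate 1, at 0.98 ± 0.22 (adjusted p = 0.0142, limma) and 0.56 ± 0.16 (0.0348), and Tpx2 was at 0.32 ± 0.16 (0.154). The microtubule-bundling genes Nusap1 (0.81 ± 0.27, adjusted p = 0.0553) and Dlgap5 (0.22 ± 0.15, adjusted p = 0.273) did not pass there.

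The 6 genes of the central spindle and cytokinesis had the largest excess over control outside the low library, with a median ratio of 1.79 between the mean of shCdGAP replicates 2 and 3 and the shCON mean. Kif23 (chr9:61915905-61946774, minus strand), the motor of the centralspindlin complex, stood at 5.83, 99.2 and 108 FPKM in the shCdGAP libraries and at 39.9, 59.3 and 60.5 FPKM in the shCON libraries. Anln, which encodes anillin of the contractile ring, stood at 7.07, 72.7 and 73.9 FPKM in the shCdGAP libraries and at 53.7, 63.7 and 64.2 FPKM in the shCON libraries. Kif20a, a motor of the central spindle, stood at 3.71, 85.3 and 98.9 FPKM in the shCdGAP libraries and at 32.2, 51.1 and 54.2 FPKM in the shCON libraries. Kif23 and Kif20a were far above control in shCdGAP replicates 2 and 3, Anln was slightly above, and all 3 were below every control library in replicate 1. Their log2 fold changes over 6 libraries were -0.34 ± 1.07 (SE; adjusted p = 0.856, limma), -0.79 ± 0.87 (0.571) and -0.41 ± 1.18 (0.841). Leaving out shCdGAP replicate 1 gave 0.97 ± 0.18 (adjusted p = 0.00782, limma), 0.28 ± 0.099 (0.0662) and 1.02 ± 0.22 (0.0128). Racgap1, a GTPase-activating protein and partner of Kif23, Ect2, the exchange factor that activates RhoA at the division plane, and Prc1, which bundles the central spindle, were also higher there, at 0.73 ± 0.16, 0.65 ± 0.10 and 0.95 ± 0.25 (adjusted p = 0.0122, 0.00378 and 0.0242). With Kif23 and Kif20a that makes 5 of 6, where 19.9% of tested genes were higher.

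Foxm1 (chr6:128362967-128376146, plus strand), the transcription factor of the list, switches on many of the other members late in the cell cycle. Its level was 2.97, 40.5 and 39.1 FPKM in shCdGAP replicates 1, 2 and 3 and 25.9, 34.5 and 34.6 FPKM in shCON. That level was 13.4-fold below its group in shCdGAP replicate 1 and just above control in the other shCdGAP libraries. The log2 fold change was -0.79 ± 0.91 over 6 libraries (SE; adjusted p = 0.593, limma) and 0.33 ± 0.14 without shCdGAP replicate 1 (adjusted p = 0.0994).

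For the comparison of CdGAP-depleted with control cells, 0 of the 39 genes passed an adjusted p of 0.05 in limma over all 6 libraries, where 21% of the 13483 tested genes passed. At an unadjusted limma p under 0.05 there were also 0, the lowest being 0.245, against 4661 of the 13483 tested genes. With limma-voom on recovered reads 0 were called too. With the replicate number as a block limma again called 0, against 8.37% of tested genes higher and 9.86% lower (18.2% in all). The authors' deposited table called 0 of 39 as well, against 23.8% of its 16970 genes with an adjusted p. Its log2 fold changes for the members ran from -0.47 (Bub1) to 0.48 (Ccnb2). Standard errors of the members in limma ranged from 0.37 to 1.18 (median 0.93), where the median of all tested genes was 0.14.

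Even the sign of the group difference depended on the scale. On the log2(FPKM + 1) scale 37 of 39 members were negative (median -0.53), with Ccnb2 and Bub3 the exceptions, while the median of all tested genes was -0.0100. As ratios of group mean FPKM, 20 were above 1 and 19 below, from 0.650 (Bub1) to 1.50 (Ccnb2) with a median of 1.00. In 18 members the log2 fold change and the ratio pointed opposite ways, among them Plk1, Ccna2, Cdc20, Mki67 and Kif23. A mean of logarithms gives the 1 very low library more weight than a mean of levels does.

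The comparison changed sign without shCdGAP replicate 1. Of the 39 genes, 21 were then higher and 0 lower, against 19.9% and 20% of tested genes, and the median log2 fold change was 0.56, from -0.060 (Bub1) to 1.07 (Ccnb2), where the median of all tested genes was 0.0085. Leaving out both libraries numbered 1 gave 29 higher and 1 lower, against 24.3% and 24%, with a median of 0.39. All 21 genes called higher in the first of these fits were also called higher in the second. Cdk1, Cdc25b, Bora, Kif2c, Aurkb, Knstrn, Top2a, Tpx2 and Dlgap5 were called in neither. It was known before these fits that shCdGAP replicate 1 stands apart. It was the lowest of 6 libraries for all 39 members, so leaving it out alone raises each fold change. The p-values behind these calls do not account for that choice. The part of shCdGAP replicate 1 and of any shared source of the libraries numbered 1 in these calls was not tested beyond leaving them out.

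**Figure D4:**
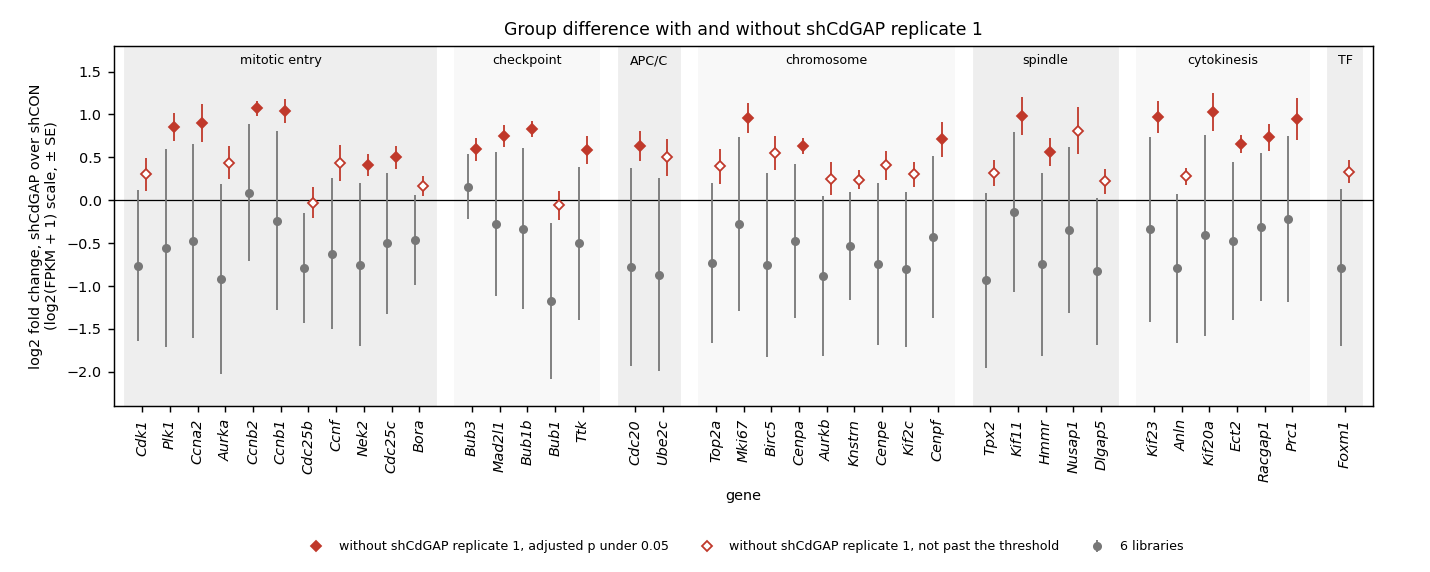
Log2 fold change of shCdGAP over shCON (log2(FPKM + 1) scale, bars are SE) for each member, over 6 libraries (grey circles) and without shCdGAP replicate 1 (red diamonds, filled where the adjusted p is under 0.05). With 6 libraries 37 of 39 lie below 0 and none is called, and without that library 37 lie above 0 and 21 are called.

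The members varied together. Over the 6 libraries the 741 pairs of members had a median Pearson r of 0.988 in log2(FPKM + 1), and 0.936 over the 5 libraries without shCdGAP replicate 1. The lowest pair was at 0.783 over the 6 libraries and at -0.155 over those 5, so not every pair varied together there. These coefficients describe 6 points that share libraries and depth, and they carry no test. By the same measure the genes outside the mitosis lists whose profile was closest to the mean standardised member profile, among the 8095 tested genes averaging 5 FPKM or more, were Pif1 (0.999), Tuba1c (0.999), Kctd10 (0.999), Pole (0.999), Rrm1 (0.998), Sapcd2 (0.998), Chaf1a (0.998), Srrt (0.998), Gm5620 (0.998) and Asf1b (0.998). Pole encodes a replicative DNA polymerase subunit, Rrm1 a ribonucleotide reductase subunit, and Chaf1a and Asf1b histone chaperones. Their deficit in shCdGAP replicate 1 ranged from 2.11-fold for Srrt and 2.18-fold for Kctd10 to 21.6-fold for Pif1 and 22.5-fold for Asf1b. Among these 8095 genes an r of at least 0.95 was reached by 499 outside the mitosis lists and by 89 other mitosis genes. It was also reached by 37 of the 39 members, all but Bub3 (0.907) and Ccnb2 (0.949). The members make up the mean profile, so their own high r was largely fixed in advance.

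Few tested genes had so large a deficit in shCdGAP replicate 1. At least 8-fold below the mean of shCdGAP replicates 2 and 3 were 280 tested genes (2.08%), and these held 35 of the 39 members, 65 of the 181 other tested mitosis genes and 13 of 48 DNA replication genes. Most of the 280, 167 genes (59.6%), were on none of these lists. At least 16-fold were 136 genes (1.01%), with 17 members among them. Among the 8095 genes averaging at least 5 FPKM, a floor that every member passed, 1.85% were at least 8-fold lower.

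Other genes of mitosis, 182 found of 183 on 7 lists and 181 tested, showed the pattern to different degrees. Over 6 libraries 8 were higher and 6 lower (against 9.92% and 11.1% of tested genes), and without shCdGAP replicate 1 the counts were 64 and 15 of 181 (against 19.9% and 20%). The total of 14 calls became 6 without shCdGAP replicate 2 or without shCON replicate 1, and 5 without shCON replicate 2 or 3. In shCdGAP replicate 1 the median gene was 9.91-fold below its group among 30 spindle motors and microtubule proteins, 8.90-fold among 37 kinetochore genes, 3.38-fold among 26 regulators of entry and exit and 3.14-fold among 23 genes of cohesin, condensin and separase. Gtse1, a microtubule-binding regulator, stood at 4.39, 67.1 and 65.4 FPKM in the shCdGAP libraries and at 57.4, 80.5 and 81.4 FPKM in the shCON libraries. It was 15.1-fold below its group in shCdGAP replicate 1, but its ratio of shCdGAP replicates 2 and 3 to the shCON mean was 0.906, under that of every member. Ncapd3, a condensin subunit, at 3.83, 12.5 and 11.6 FPKM in the shCdGAP libraries and at 11.5, 13.8 and 12.5 FPKM in the shCON libraries, had a smaller deficit. For the 18 core subunits and partners of the anaphase-promoting complex the median was 1.26-fold and for 24 genes of cytokinesis and abscission 1.10-fold, in the range of all tested genes.

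**Figure D5:**
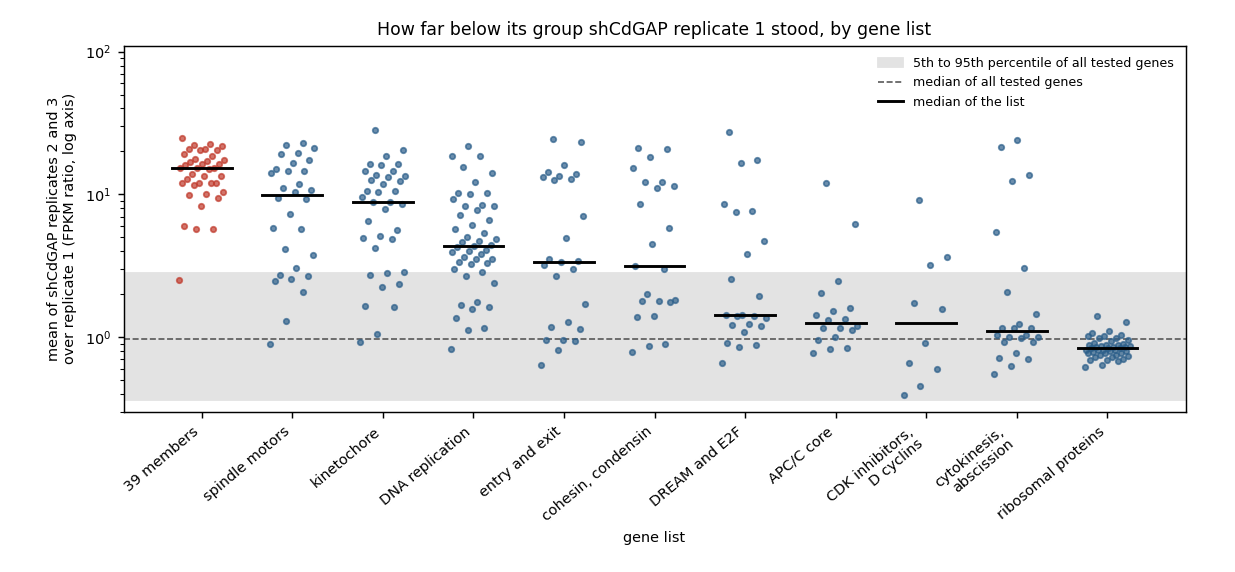
Ratio of the mean FPKM of shCdGAP replicates 2 and 3 to that of replicate 1 (log axis) for each gene of 11 lists, with the median of each list (black bar), the median of all tested genes (dashed line) and their 5th to 95th percentile (grey band, 0.363 to 2.83). The members lie at 2.50 to 24.8 and the ribosomal protein genes around 0.845.

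Some genes of these lists differed between the groups over all 6 libraries. Among all tested genes 9.92% were higher and 11.1% lower. Of the kinetochore list 2 were lower and 0 higher: Zwint, which recruits the Rod-Zw10-Zwilch complex, stood at 38.5, 36.3 and 35.0 FPKM in the shCdGAP libraries and at 63.1, 81.8 and 77.1 FPKM in the shCON libraries (log2 fold change -0.99 ± 0.12, adjusted p = 0.00366, limma), and Zw10, a part of that complex, at 7.15, 16.6 and 15.3 FPKM in the shCdGAP libraries and at 33.3, 32.3 and 31.7 FPKM in the shCON libraries (-1.33 ± 0.30, 0.0263). Zwint showed no drop in shCdGAP replicate 1, and Zw10 was lowest there. Among regulators of entry and exit, Psrc1, a microtubule-associated protein, was lower at 25.4, 22.8 and 18.4 FPKM in the shCdGAP libraries and at 46.4, 50.1 and 49.8 FPKM in the shCON libraries (-1.11 ± 0.14, adjusted p = 0.00334, limma). Cdc14b, a phosphatase, and Arpp19, whose phosphorylated form inhibits the phosphatase that opposes Cdk1, were higher (0.43 ± 0.093 and 0.60 ± 0.14, adjusted p = 0.0232 and 0.0309, limma). Ccne1, which encodes cyclin E1 of S phase entry, stood at 0.444, 5.17 and 7.11 FPKM in the shCdGAP libraries and at 16.2, 21.0 and 20.4 FPKM in the shCON libraries, without overlap. Its adjusted p was 0.0527 in limma over 6 libraries, 0.0444 with the replicate number as a block and 0.000819 without shCdGAP replicate 1.

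The ligase that Cdc20 and Ube2c serve had 4 of 18 genes higher and 1 lower (against 9.92% and 11.1% of tested genes). Anapc11, its catalytic RING subunit, stood at 8.42, 12.3 and 12.0 FPKM in the shCdGAP libraries and at 5.12, 5.51 and 5.88 FPKM in the shCON libraries, above control in every shCdGAP library (0.86 ± 0.16, adjusted p = 0.0141, limma). Cdc16 (0.60 ± 0.11, 0.0152) and Anapc10 (0.39 ± 0.10, 0.0447), further subunits, were higher, and Anapc1, its large scaffold, was lower (-0.51 ± 0.13, 0.0380). With the replicate number as a block Anapc10, Anapc1 and Anapc13, the fourth higher gene, named after its values were seen, lost their calls (adjusted p = 0.0732, 0.0899 and 0.0971, limma). Of the spindle list Numa1, which anchors spindle poles, was higher (0.41 ± 0.095, adjusted p = 0.0287, limma) and 0 were lower. Its adjusted p with the block was 0.0582. Of the cytokinesis and abscission list the septin gene Sept9 was lower at 19.7, 22.6 and 23.3 FPKM in the shCdGAP libraries and at 49.4, 39.8 and 39.4 FPKM in the shCON libraries (-0.94 ± 0.13, adjusted p = 0.00506, limma) and 0 were higher. Zwint, Psrc1, Sept9, Nfya and Nfyb, 5 of the 14 called genes of these lists, were called whichever library was left out. Each of the other 9 lost its call without 3 or more of the single libraries. The cohesin, condensin and separase list had 0 of 23 called by limma, against 21% of tested genes. At an unadjusted p under 0.05 it had 1, against 4661 of 13483 tested genes.

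Regulators of the CHR and CCAAT elements were looked at as well. Of 23 genes of the DREAM, MuvB and E2F list, which includes NF-Y, 1 was higher and 1 lower. The shares of all tested genes were 9.92% and 11.1%. Nfya, the NF-Y subunit that reads the CCAAT box, was higher in shCdGAP at 9.75, 12.5 and 11.4 FPKM in the shCdGAP libraries and at 5.07, 5.85 and 5.18 FPKM in the shCON libraries (0.93 ± 0.12, adjusted p = 0.00396, limma). Nfyb, a histone-fold subunit of NF-Y, was lower at 5.28, 7.77 and 7.05 FPKM in the shCdGAP libraries and at 13.3, 13.8 and 12.9 FPKM in the shCON libraries (-0.91 ± 0.14, adjusted p = 0.00820). Neither pair of groups overlapped, and shCdGAP replicate 1 was 1.22-fold below its group for Nfya and 1.40-fold for Nfyb. E2f1, an activator of S phase genes, stood at 5.39, 10.6 and 10.3 FPKM in the shCdGAP libraries and at 14.3, 16.3 and 15.6 FPKM in the shCON libraries (-0.80 ± 0.24, adjusted p = 0.0691, limma). Mybl2, the Myb subunit that turns MuvB into an activator, was picked after its values were seen, and stood at 0.916, 12.9 and 17.2 FPKM in the shCdGAP libraries and at 12.8, 16.7 and 16.8 FPKM in the shCON libraries, with replicates 2 and 3 of shCdGAP around the control level (ratio 0.977). Its deficit in shCdGAP replicate 1 was 16.5-fold, and the median of the list was 1.42-fold.

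DNA replication genes had 0 of 48 called by limma over 6 libraries, against 21% of tested genes. At an unadjusted p under 0.05 they had 1, Rpa3 (0.30 ± 0.093, adjusted p = 0.0711), against 4661 of 13483 tested genes. In shCdGAP replicate 1 the replication genes were 4.36-fold below their group in the median, less than the members, and Cdc45, a part of the replicative helicase, stood at 1.81, 14.6 and 15.3 FPKM in the shCdGAP libraries and at 16.0, 24.9 and 22.9 FPKM in the shCON libraries. Without that library 5 were higher and 0 lower (against 19.9% and 20% of tested genes), and the median log2 fold change of the list was 0.20, where that of the members was 0.56. In the other shCdGAP libraries Cdc45 was below every shCON library, while the median ratio of those libraries to the shCON mean was 1.15 over the list and 1.47 over the members.

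Among 10 tested cyclin-dependent kinase inhibitors and D cyclins, 2 were lower and 0 higher (against 11.1% and 9.92% of tested genes). Cdkn2a, the locus of the inhibitor p16 and of Arf, stood at 13.4, 6.18 and 5.94 FPKM in the shCdGAP libraries and at 58.1, 29.7 and 28.7 FPKM in the shCON libraries (-2.08 ± 0.39, adjusted p = 0.0148, limma), and within each group replicate 1 was its highest library. Cdkn1a, the p53 target that encodes p21, stood at 63.2, 58.7 and 56.9 FPKM in the shCdGAP libraries and at 89.4, 88.9 and 83.9 FPKM in the shCON libraries (-0.55 ± 0.092, adjusted p = 0.00990). Cdkn2a had an adjusted p of 0.0595 without shCdGAP replicate 2, and Cdkn1a one of up to 0.0652 without that library or shCON replicate 2. Cdkn1b, which encodes the inhibitor p27, stood at 27.2, 20.1 and 15.8 FPKM in the shCdGAP libraries and at 14.8, 12.6 and 12.0 FPKM in the shCON libraries (0.61 ± 0.20, adjusted p = 0.0866, and 0.0450 with the replicate number as a block), highest in shCdGAP replicate 1. Ccnd1, the cyclin that relays growth signals to the cell cycle, stood at 166, 245 and 283 FPKM in the shCdGAP libraries and at 372, 363 and 378 FPKM in the shCON libraries (-0.71 ± 0.20, adjusted p = 0.0538), lowest there. Cytosolic ribosomal protein genes showed no deficit in that library (median ratio 0.845), and 4 of 45 were higher and 0 lower over 6 libraries, a share of higher genes near the 9.92% of all tested genes: Rps28, Rpl13, Rps18 and Rps27. Each of these 4 lost its call without 3 or more of the single libraries, and Rps27 with the block (adjusted p = 0.0541, limma). Whether the inhibitors, the mitochondrial share or the leukocyte and epithelial sums of shCdGAP replicate 1 have a part in its low mitosis genes was not tested.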

How the data were processed

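Total RNA of 3 shCdGAP and 3 shCON libraries was sequenced by the authors on an Illumina HiSeq instrument, per the labels. The submitters' processing notes name Trimmomatic, TopHat2 2.0.13, featureCounts, DESeq2 and the mouse build mm10. Annotation release and strand use: not given in the sources used here. Antisense or overlapping genes may therefore share reads with a member. The authors deposited FPKM values for 41214 genes, 1 column per library, which they had already scaled by size factors. Further columns are, per the file headers, the authors' mean signal of each gene, their log2 fold change and its SE, their test score, and each p-value before and after adjustment.

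Reads were recovered from the FPKM through the mean signal and a fitted size factor (100% of values whole, tolerance 1e-06). Genes with at least 10 scaled reads in at least 3 libraries and 15 reads in all were tested (13483) with limma 3.58.1 in R 4.3.3 on log2(FPKM + 1), with trend and robust settings. Tests were 2-sided with group as the single term, and p was adjusted by Benjamini-Hochberg across the tested genes at 0.05. The pseudocount of 1 FPKM understates differences of low genes. Steps were tested on simulated data in which no library stood apart from its group, so that test does not cover a library like shCdGAP replicate 1. Levels are compared between genes as FPKM, which is per length.

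The members, roles and other lists were chosen with earlier results of these data known. Values by library are given for up to 3 members per role with the highest mean FPKM, other lists are represented by up to 4 genes with the smallest p, and other names, chosen after their values were seen, are marked. The groups share replicate numbers. Deviations from the group mean correlated over genes at 0.43, 0.39 and 0.34 for libraries of equal number. A blocked value is therefore printed for each named gene of the lists whose call changes when blocking on number. The other fits use no pairing. No label states this pairing, and shCdGAP 2 correlated at 0.35 with shCON 3. Deviations cancel within each group, so the 3 values for equal numbers are not independent of each other. Upstream sequences were searched with Python 3.11.15.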

Additional observations from a re-analysis of the deposited data

How the results depend on the processing

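The call of 0 members held in each of the 10 alternatives of scaling, filter, pseudocount, test and replicate block, and each of the 39 log2 fold changes kept its sign in them. With the replicate block 0 members were called, where 18.2% of tested genes were. Leaving out 1 library, or both numbered 1, gave 0 to 30 members called, 5 to 96 other mitosis genes (14 with 6 libraries), 1 to 38 genes of the comparison lists (6) and 1237 to 6506 of all genes (2838). The comparison lists had 3 calls with no filter on low genes, and all genes had 1342 at a mean of at least 5 FPKM, where fewer genes are tested. With limma-voom on recovered reads 2979 genes were called. The sign of 35 members reversed without shCdGAP replicate 1, and of as many without both libraries numbered 1, while Ccnb2 and Bub3 reversed without shCdGAP replicate 2 or 3, so over these fits the log2 fold change ran from -1.33 to 0.28 for Anln, -1.60 to 0.44 for Aurka, -1.54 to 0.25 for Aurkb, -1.42 to 0.55 for Birc5, -0.80 to 0.16 for Bora, -1.75 to -0.060 for Bub1, -0.92 to 0.83 for Bub1b, -0.065 to 0.59 for Bub3, -1.17 to 0.90 for Ccna2, -0.89 to 1.04 for Ccnb1, -0.44 to 1.07 for Ccnb2, -1.18 to 0.44 for Ccnf, -1.52 to 0.63 for Cdc20, -1.24 to -0.028 for Cdc25b, -1.03 to 0.50 for Cdc25c, -1.32 to 0.30 for Cdk1, -1.03 to 0.63 for Cenpa, -1.35 to 0.40 for Cenpe, -1.07 to 0.71 for Cenpf, -1.37 to 0.22 for Dlgap5, -1.05 to 0.65 for Ect2, -1.36 to 0.33 for Foxm1, -1.42 to 0.56 for Hmmr, -0.76 to 0.98 for Kif11, -1.18 to 1.02 for Kif20a, -1.03 to 0.97 for Kif23, -1.36 to 0.30 for Kif2c, -0.95 to 0.24 for Knstrn, -0.82 to 0.75 for Mad2l1, -0.92 to 0.96 for Mki67, -1.38 to 0.41 for Nek2, -1.01 to 0.81 for Nusap1, -1.27 to 0.85 for Plk1, -0.87 to 0.95 for Prc1, -0.87 to 0.73 for Racgap1, -1.38 to 0.39 for Top2a, -1.58 to 0.32 for Tpx2, -1.06 to 0.58 for Ttk, -1.56 to 0.50 for Ube2c. In fits that leave 2 libraries in a group, the spread is shared with the other group. With 3 libraries per group and 1 that stands apart, a group difference in these genes was not resolved.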
